A study of Mus musculus with 208 samples.

Results

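Messenger RNA levels of 10 genes of the mammalian circadian clock and its direct output (Per1, Per2, Per3, Cry1, Dbp, Tef, Nr1d1, Nr1d2, Arntl and Npas2) were examined in the tissues and embryos of mice descended from conventionally raised (CR) and germ-free (GF) parents. All 10 were found in every table of the series, and the tables list between 23818 and 38605 genes. The genes were chosen by name, with their levels in these same comparisons in view, to see whether groups of mice differ in the phase-like balance between Per and Dbp on one side and Arntl and Npas2 on the other. Their differences between groups are therefore given with their errors as a description and without p-values.

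Gene expression was measured by RNA sequencing in C57BL/6 mice that were 8 weeks old and in single embryos. F0 sebaceous glands (SGs) came from CR mice (n = 3) and GF mice (n = 3) and had been laser-captured from paraffin sections of fixed back skin. F1 offspring were bred from CR and GF parents in a conventional facility, so that all of them carried microbes from birth, and crosses are written with the father first. F1 SGs were taken from CR×CR (n = 2) and GF×GF (n = 3) mice. For these glands the paper's methods name CR×CR and GF×GF F1 mice. Its results describe gland sequencing in offspring of GF dams that were colonized while pregnant. F1 back skin was taken from CR×CR (n = 5), GF×GF (n = 3) and GF×CR (n = 3) mice, and F2 back skin from the CR×CR (n = 5), GF×GF (n = 3) and GF×CR (n = 6) lines. In the study's main breeding scheme, F2 mice had F1 mothers of the line named and fathers that were new to the study, CR for the CR×CR and GF×CR lines and GF for the GF×GF line. F1 ileum and F1 liver each came from 4 CR×CR and 3 GF×CR mice. Embryos were made by in vitro fertilization and collected singly at the 4-cell stage after 46 h (CR×CR, n = 25; CR×GF, n = 9; GF×CR, n = 15; RAG×WT, n = 21) and at the morula stage after 72 h (CR×CR, n = 43; GF×CR, n = 17; RAG×WT, n = 28). The 4-cell embryos came from several rounds of fertilization, and which embryo came from which round is not given in the sources used here. Embryos that share a round or parents are counted as separate samples, so their errors and p-values may be too small. RAG×WT embryos had sperm of Rag2-/- males, which lack mature T and B cells, and eggs of wild-type females. The hour of the day at which a mouse was killed is not given in the sources used here, so the cross of a group and its hour of collection cannot be told apart. Litters and sexes of single mice are not given either, so errors and p-values measure only the spread between the samples.

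The circadian clock is a feedback loop of transcription that runs in nearly every cell of the body with a period of about a day. Arntl (also called Bmal1) pairs with Clock or its relative Npas2, binds E-boxes and drives the Per and Cry genes, whose proteins return to the nucleus and inhibit the pair. The same activator drives Dbp and Tef, factors that act through D-boxes, and Nr1d1 and Nr1d2 (REV-ERB alpha and beta), nuclear receptors that repress Arntl and Npas2 through ROR elements. In peripheral tissues such as liver, Dbp and Nr1d1 therefore peak at an opposite phase to Arntl and Npas2, and their ratio moves with the hour of sampling. Per1 also responds to glucocorticoid hormones, and Per2 to heat and feeding signals.

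Of the 10 genes, 9 matched a RefSeq promoter (build GRCm38.p6), with 12 windows in all for their alternative starts. Each window ran from 250 bases before the start to 50 bases after it, and both strands were searched. The E-box CACGTG was in windows of 3 genes (Per1, Cry1 and both windows of Tef) and in 7.15% of all 32851 mouse windows. The D-box (TTATGTAA or TTACGTAA) was in the window of Per3 only, which held 2 copies, against 1.06% of all windows. The ROR element core (TAGGTCA or TGGGTCA) was in 1 window of Arntl and in 6.45% of all windows, and no window of these genes held the cAMP response element TGACGTCA, which 1.79% of all windows held. These motifs do not overlap each other, and a match is a match of letters only. The 3 sequences below are shown because they hold the motif of each arm of the loop: activator, output factor and repressor. They are printed 5′ to 3′ on the strand of the gene with the motif in capitals.
Per1 (chr11:69098699-69098948, plus strand, the 250 bases before the first start, E-box at -166 to -161 from the start): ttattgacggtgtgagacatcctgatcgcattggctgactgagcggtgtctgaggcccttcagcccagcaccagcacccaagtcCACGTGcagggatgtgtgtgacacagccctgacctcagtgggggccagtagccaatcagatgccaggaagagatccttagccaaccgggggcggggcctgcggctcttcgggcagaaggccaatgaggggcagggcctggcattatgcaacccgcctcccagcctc
Per3 (chr4:151044666-151044915, minus strand, the 250 bases before the start, D-boxes at -205 to -198 and -158 to -151): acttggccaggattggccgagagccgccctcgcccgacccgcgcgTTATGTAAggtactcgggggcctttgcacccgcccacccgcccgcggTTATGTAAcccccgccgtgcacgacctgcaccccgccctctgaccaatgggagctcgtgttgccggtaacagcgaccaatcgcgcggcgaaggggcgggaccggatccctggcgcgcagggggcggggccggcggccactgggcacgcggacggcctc
Arntl (chr7:113207525-113207554, plus strand, 30 bases from +15 after the second start, ROR element core at +31 to +37): tagggaaggcagaaagTAGGTCAgggacgg

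Levels of tissues are in CPM, counts scaled to a common library total, and those of embryos in TPM, which also takes account of transcript length. From the size of the smallest steps in the values, the libraries held about 3.7 to 4.8 M reads (M, mega) in F0 SGs, 5.9 to 18.3 in F1 SGs, 11.3 to 24.7 in F1 skin, 15.2 to 23.7 in F2 skin, 2.6 to 14.2 in ileum and 3.4 to 7.3 in liver, so that 1 CPM stood for only a few reads in the shallowest ileum and liver libraries. Each tissue held its defining markers: 10 SG markers summed to between 35842 and 48334 CPM in SGs, 9 ileal epithelium markers to between 15583 and 33599 CPM in ileum, and 10 hepatocyte markers to between 76609 and 121813 CPM in liver. In SGs 10 skeletal muscle markers summed to 10.7 to 234 CPM and 10 adipocyte markers to 58.7 to 112 CPM, with Ckm, Adipoq and Plin1 at 0 in every SG library. Every tissue is a mixture of cells, in which fewer cells of a type and less RNA per cell cannot be told apart. Differences below are case minus control on the log2(value + 0.5) scale with their standard error, which understates changes of genes near 0. The error is limma's where the gene passed the filter (1 CPM or TPM or more in a number of samples equal to the size of the smaller group), and a call is an adjusted p under 0.05 in limma (Benjamini-Hochberg, over all genes tested). Across all genes the median difference was 0.14 in F0 SGs, -0.20 in F1 GF×GF skin, -0.32 in GF×CR morulae and 0.17 in RAG×WT 4-cell embryos, and within 0.1 of 0 in the other comparisons.

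In the glands of adult F0 mice, Per1 was lower in GF than in CR mice, while the output genes Dbp, Tef, Nr1d1 and Nr1d2 overlapped between the groups. Per1, a repressor of the loop, was at 188, 162 and 173 CPM in the 3 CR mice and at 123, 76.9 and 83.0 CPM in the 3 GF mice. Means were 174 ± 13.01 (SD) and 94.2 ± 24.9, a difference of -0.91 ± 0.17. Every GF mouse lay below every CR mouse. Per3 stood the other way, at 152, 185 and 168 CPM in CR and 199.6, 234 and 201 CPM in GF mice (0.33 ± 0.12). Per2 overlapped at 17.2 to 39.01 CPM in CR and 16.8 to 30.6 CPM in GF mice (-0.26 ± 0.32). Cry1, which pairs with the PER proteins, was at 17.1 to 19.5 CPM in CR and 15.7 to 16.6 CPM in GF mice (-0.16 ± 0.18). The PER family thus did not move as one in these glands.

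Dbp was at 56.1, 54.1 and 60.8 CPM in CR glands and 60.05, 63.4 and 61.7 CPM in GF glands (0.11 ± 0.12, but -0.02 once libraries were scaled by their median ratio). Both groups were tight and they overlapped at 1 mouse only, CR replicate 3. Tef was at 213 to 222 CPM in CR and 216 to 299 CPM in GF glands (0.28 ± 0.13). Nr1d1 was at 160.2 to 167 CPM in CR and 141 to 163 CPM in GF glands (-0.08 ± 0.10), and Nr1d2 at 161 to 168 and 153 to 181 CPM (0.01 ± 0.10, but -0.13 with that scaling). The activators were more scattered: Arntl was at 21.8 to 23.6 CPM in CR and at 24.7, 20.2 and 10.7 CPM in GF glands (-0.35 ± 0.29), the lowest value being GF replicate 3. Npas2 was at 17.8 to 33.6 CPM in CR and 30.4 to 45.8 CPM in GF glands (0.58 ± 0.26), highest in that same mouse. Of the 10 genes, 3 did not overlap between the groups (Per3 higher, Per1 and Cry1 lower), beside 24.9% of all genes tested, and 1 (Per1, lower) passed the call, beside 2.2% of all genes. Per1 was called in 6 of 12 alternatives, and the call was lost with no filter and without CR replicate 1, 2 or 3 or GF replicate 2 or 3. The summed level of 10 fibroblast markers was 4751 to 7481 CPM in CR and 6716 to 13315 CPM in GF glands. That of 8 smooth muscle markers was 43.4 to 55.5 and 61.9 to 81.4 CPM, without overlap, and the part of both in these differences was not tested.

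Among F1 glands, Per1 was again lower in mice with GF parents, and here Dbp and Arntl had lower means too. Per1 was at 114 and 97.0 CPM in the 2 CR×CR mice and 27.8, 32.4 and 64.0 CPM in the 3 GF×GF mice. Means were 106 ± 12.3 and 41.4 ± 19.7 (SD), a difference of -1.43 ± 0.32. All 3 GF×GF mice lay below both CR×CR mice. Dbp was at 8.23 and 14.2 CPM in CR×CR and 6.63, 7.07 and 8.74 CPM in GF×GF mice (-0.52 ± 0.33), with 1 GF×GF mouse above the lower CR×CR mouse. Arntl was at 49.7 and 40.01 CPM against 33.99, 32.8 and 39.8 CPM (-0.33 ± 0.19), groups that were apart by less than 1 CPM. Cry1 was at 15.5 and 14.4 CPM against 16.8, 15.6 and 20.8 CPM (0.23 ± 0.24).

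The 2 CR×CR glands disagreed most on Per2, at 31.2 and 3.39 CPM, on both sides of the 3 GF×GF glands at 6.79, 9.64 and 14.6 CPM. The difference of -0.10 ± 0.76 was 1.42 without CR×CR replicate 1 and -1.61 without replicate 2. For Dbp it was -0.89 and -0.14 without the same mice, for Per3 -0.27 and 0.15, and for Nr1d2 -0.32 and 0.21, so only Dbp of these 4 kept its sign. Per3 (-0.06 ± 0.17), Tef (0.21 ± 0.19), Nr1d1 (0.42 ± 0.25), Nr1d2 (-0.06 ± 0.20) and Npas2 (-0.02 ± 0.22) overlapped between the crosses. Nr1d1 had 1 high mouse, GF×GF replicate 2 at 86.2 CPM, against 41.6 to 55.7 CPM in the other 4. Of the 10 genes, 3 did not overlap (Cry1 higher, Per1 and Arntl lower), beside 30.2% of all genes, and 0 passed the call, beside 0.717% of all genes. The fibroblast marker sum was 2225 to 2660 CPM in CR×CR and 1013 to 1957 CPM in GF×GF glands, without overlap. The SG markers (43406 to 44541 against 44783 to 48334 CPM), the immune cell markers (199.5 to 203 against 238 to 261 CPM) and the hepatocyte markers (94.9 to 95.5 against 49.2 to 63.8 CPM) did not overlap either, and the part of these was not tested.

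**Figure D1:**
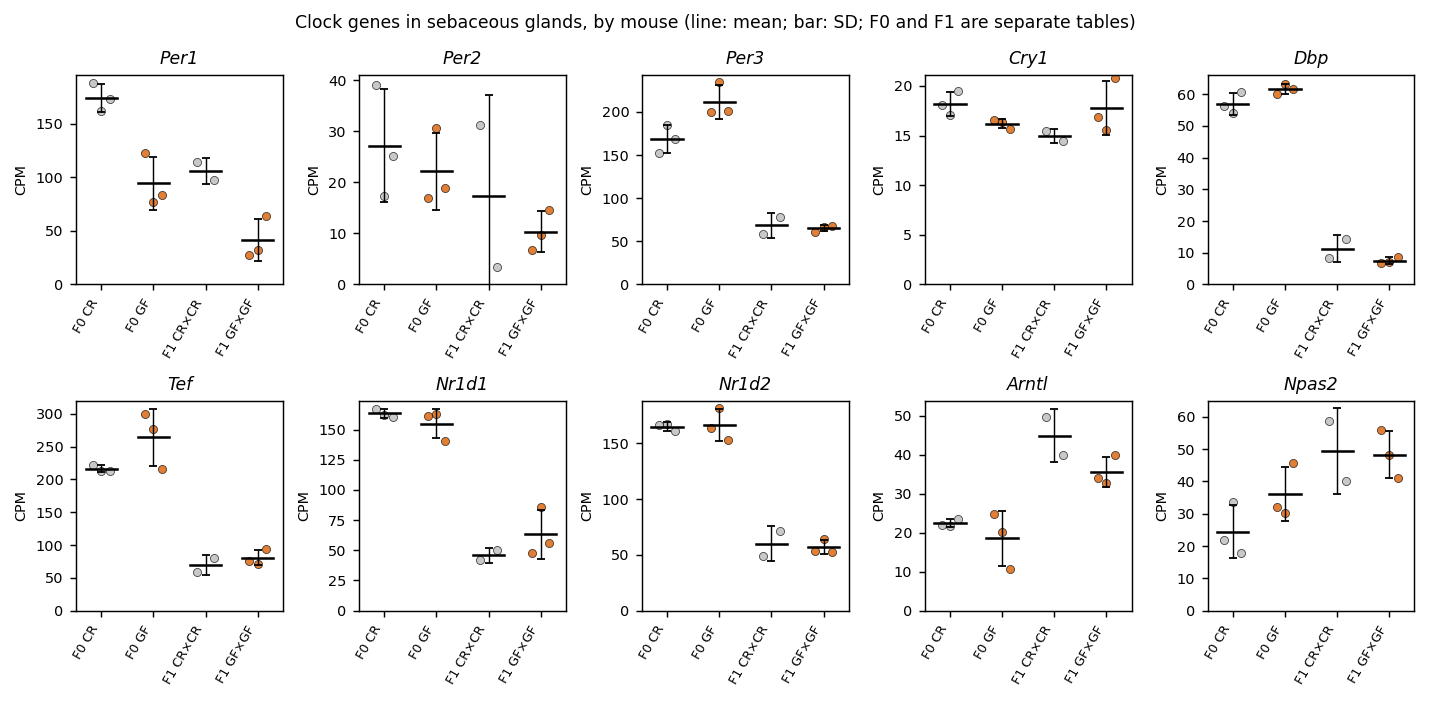
Clock gene levels in sebaceous glands, one panel for each of the 10 genes. Points are single mice in CPM on the vertical axis for F0 CR, F0 GF, F1 CR×CR and F1 GF×GF glands, the line is the group mean and the bar the SD, cut at 0; F0 and F1 values come from separately normalised tables. Per1 lies lower in the GF and GF×GF mice of both generations, and Dbp lies between 54.1 and 63.4 CPM in F0 but between 6.63 and 14.2 CPM in F1 glands.

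The widest contrast in glands was between the generations and not between the parents. F0 and F1 glands are in tables that were normalised separately, so their levels are set side by side without a test. In the CR line Dbp was at 57.0 ± 3.46 CPM (SD) in F0 and 11.2 ± 4.25 CPM in F1 glands, 5.07-fold higher in F0. In the GF line it was at 61.7 ± 1.66 and 7.48 ± 1.11 CPM, 7.84-fold higher in F0. Nr1d1 was 3.54-fold and 2.51-fold higher in F0 in the CR and GF lines, Tef 3.10-fold and 3.26-fold, Nr1d2 2.78-fold and 2.91-fold, and Per3 2.47-fold and 3.23-fold. All 5 genes share the Arntl activator as their driver in the textbook loop, and none of them overlapped between F0 and F1 in either line. Arntl stood the opposite way, at 22.5 ± 0.99 CPM in F0 CR and 44.9 ± 6.88 CPM in F1 CR×CR glands (a log2 difference of -0.97), and at 18.5 ± 7.15 and 35.5 ± 3.77 CPM in the GF line (-0.99). Npas2 differed by -1.02 in the CR line and by -0.43, with overlap, in the GF line. In each line 7 of the 10 genes differed by more than 1 on the log2 scale, beside 9.51% of all genes in the CR line and 10.2% in the GF line, where the median over all genes was -0.09 and 0.07. Among other clock genes, Nfil3, a repressor that competes with Dbp at D-boxes, stood with Arntl (-0.88 in the CR line, -1.01 in the GF line), and Cry2 stood with Dbp (0.95 and 0.88). These 2 genes were picked out after their values were seen. Generation and table change together here and cannot be told apart. In the GF line the presence of microbes changes with them, as F0 GF mice had none and F1 GF×GF mice carried them from birth. Cell content differed as well. The summed fibroblast markers were 4751 to 7481 CPM in F0 CR and 2225 to 2660 CPM in F1 CR×CR glands. In the GF line they were 6716 to 13315 and 1013 to 1957 CPM, and neither line overlapped. The summed SG markers overlapped between F0 and F1 in both lines. The part of cell content in this contrast was not tested.

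In the skin of F1 mice, Per1 and Per2 were lower in mice with 2 GF parents, and the Dbp and Nr1d arm of the clock overlapped with the controls. Per1 was at 68.0, 79.1, 109, 96.5 and 105 CPM in CR×CR mice and 13.8, 47.0 and 60.1 CPM in GF×GF mice. Means were 91.5 ± 17.5 and 40.3 ± 23.9 (SD), a difference of -1.39 ± 0.39. Per2 was at 8.82, 7.25, 6.96, 8.14 and 6.21 CPM in CR×CR mice and 2.83, 3.01 and 2.75 CPM in GF×GF mice. For Per2 the 3 GF×GF mice lay close together, and the mean of 2.86 ± 0.136 stood against that of CR×CR mice at 7.48 ± 1.02 (-1.24 ± 0.18). Cry1 was at 8.90 to 12.8 CPM in CR×CR and 7.44 to 8.84 CPM in GF×GF mice (-0.35 ± 0.17), again without overlap. All 3 of these genes encode repressors of the loop.

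Per3, the remaining Per gene, was at 12.5 to 24.2 CPM in CR×CR and 16.1 to 21.6 CPM in GF×GF skin (0.04 ± 0.22). Dbp was at 0.851 to 6.51 CPM and 2.97 to 4.84 CPM (0.52 ± 0.44), so the 5 control mice alone covered a wider range than any difference between the crosses. Tef (-0.20 ± 0.18, but 0.02 with median ratio scaling), Nr1d1 (0.13 ± 0.23), Nr1d2 (0.04 ± 0.17), Arntl (-0.04 ± 0.16, but 0.19 with that scaling) and Npas2 (-0.39 ± 0.24) overlapped as well. Of the 10 genes, 3 did not overlap, beside 6.5% of all genes, and 1 (Per2, lower) passed the call, beside 0.09% of all genes. Per2 was called in 3 of 14 alternatives (both other pseudocounts and a filter at 5), and leaving out any 1 of the 8 mice ended the call, as did no filter, median ratio scaling and a replicate block. The summed keratinocyte markers were at 2749 to 7199 CPM in CR×CR and 2353 to 3099 CPM in GF×GF skin and the skeletal muscle markers at 20305 to 31158 and 14167 to 21940 CPM. The part of these cells in the differences was not tested.

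F1 skin with a GF father only was compared with the same 5 CR×CR mice, as listed in a second table in which their values differ by a factor that is constant for each gene. Per1 was at 68.4, 79.6, 109.8, 97.0 and 106 CPM in CR×CR mice and 20.2, 46.1 and 75.7 CPM in GF×CR mice. Means were 92.1 ± 17.6 and 47.4 ± 27.8 (SD), a difference of -1.12 ± 0.34. The highest GF×CR mouse was above the lowest CR×CR mouse, so the groups overlapped by 1 mouse. Per2 was at 5.46 to 7.76 CPM in CR×CR and 2.99, 5.53 and 8.55 CPM in GF×CR mice (-0.29 ± 0.27). It covered the whole control range, unlike the narrow GF×GF values.

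Both activators had lower means in GF×CR mice, as did Per1, Per2 and Cry1. Arntl was at 27.1 to 33.2 CPM in CR×CR and 26.9, 25.7 and 23.5 CPM in GF×CR mice (-0.26 ± 0.13), apart by a fraction of 1 CPM. Npas2 was at 25.3, 18.5, 19.99, 13.5 and 12.5 CPM in CR×CR and 10.6, 13.1 and 8.65 CPM in GF×CR mice (-0.68 ± 0.24). GF×CR replicates 1 and 2 held the higher output levels, with Dbp at 6.58 and 8.03 CPM, Tef at 54.8 and 55.5 CPM and Nr1d1 at 54.5 and 51.7 CPM. In replicate 3, Dbp was at 1.25, Tef at 22.6 and Nr1d1 at 22.997 CPM, below all but the lowest of the 5 CR×CR mice for Dbp and below all of them for Tef and Nr1d1. The 3 genes moved together between mice of 1 group, by more than the crosses differed (0.66 ± 0.58 for Dbp, 0.11 ± 0.28 for Tef and 0.09 ± 0.28 for Nr1d1). Nr1d2 (0.40 ± 0.20), Per3 (0.31 ± 0.22) and Cry1 (-0.40 ± 0.18) overlapped. Arntl was the 1 gene of 10 that did not overlap (lower), beside 4.5% of all genes, and 0 passed the call, beside 0.0537% of all genes. The skeletal muscle marker sum was 20624 to 32074 CPM in CR×CR and 10549 to 20013 CPM in GF×CR skin, without overlap, and its part was not tested.

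**Figure D2:**
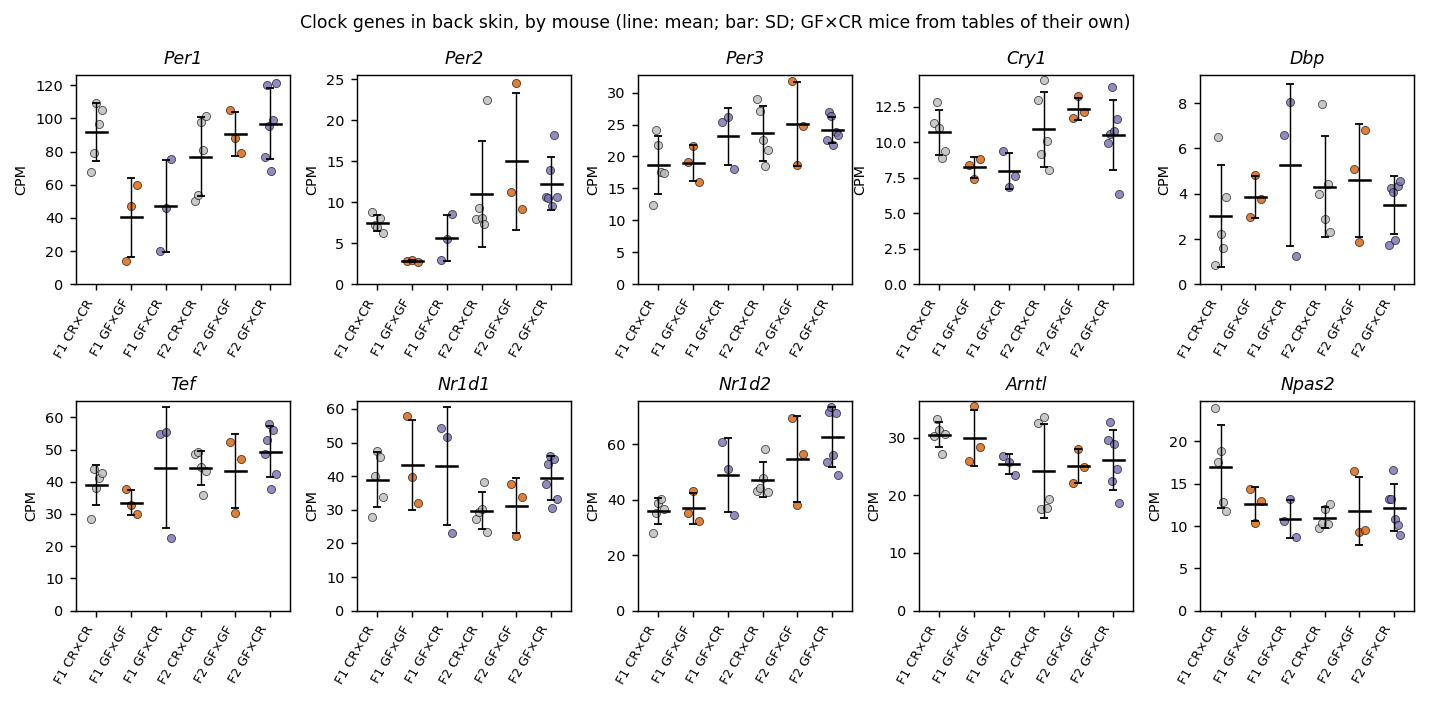
Clock gene levels in back skin, one panel for each of the 10 genes. Points are single mice in CPM on the vertical axis for the CR×CR, GF×GF and GF×CR groups of F1 and F2, with the mean as a line and the SD as a bar, cut at 0. GF×CR values come from their own tables, and CR×CR values from those of the GF×GF comparisons. F1 GF×GF mice sit at 13.8 to 60.1 CPM for Per1 and 2.75 to 3.01 CPM for Per2, under all F1 CR×CR mice, while in the F2 every pair of groups overlaps.

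In F2 skin none of the 10 genes separated the lines. Per1 was at 50.4, 53.6, 97.9, 81.2 and 102 CPM in CR×CR mice and 105, 87.9 and 79.1 CPM in GF×GF mice (0.29 ± 0.27). Per2 was at 7.36 to 22.4 CPM in CR×CR and 11.3, 24.5 and 9.14 CPM in GF×GF mice (0.43 ± 0.39). Both means were above the controls, whereas in the F1 both had been below. Dbp (0.04 ± 0.41), Tef (-0.06 ± 0.23), Nr1d1 (0.05 ± 0.24), Nr1d2 (0.18 ± 0.23), Per3 (0.07 ± 0.24), Cry1 (0.20 ± 0.24), Arntl (0.10 ± 0.27) and Npas2 (0.05 ± 0.24) differed by no more than their errors. None of the 10 was without overlap (0), beside 1.4% of all genes, and 0 passed the call, beside 0.0418%.

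Mice of the GF×CR line, compared with the same 5 F2 controls, had Per1 at 68.4 to 121 CPM with a median of 97.2 CPM against 48.8 to 98.3 CPM and a median of 78.6 CPM (0.40 ± 0.23). Nr1d1 was at 30.6 to 46.1 CPM against 23.9 to 39.02 CPM (0.37 ± 0.18), and Nr1d2 at 48.8 to 73.3 CPM against 42.9 to 58.5 CPM (0.38 ± 0.17). These 3 genes had the largest differences of the 10, and all 3 overlapped. Dbp was at 1.72 to 4.56 CPM against 2.33 to 8.01 CPM (-0.24 ± 0.31), so a gene of the same arm as Nr1d1 had the lower mean. Per2 (0.21 ± 0.27), Per3 (0.05 ± 0.16), Cry1 (-0.06 ± 0.22), Tef (0.21 ± 0.17), Arntl (0.14 ± 0.22) and Npas2 (0.11 ± 0.18) overlapped too. Again 0 of the 10 were without overlap, beside 0.237% of all genes, and 0 passed the call, beside 0% of the 16430 genes tested in limma, of which 365 had an unadjusted p under 0.05. Between the F1 and F2 CR×CR skin tables, 0 of the 10 genes differed by more than 1 on the log2 scale, beside 1.3% of all genes. Of the activators, Npas2 was at 11.003 ± 1.23 CPM in F2 and 17.01 ± 4.92 CPM in F1 (-0.57), with overlap.

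The 25 skin mice also show which genes moved together from mouse to mouse once the mean of each group was taken away. This was computed on log2(CPM + 0.5) in 11 F1 and 14 F2 mice, over 14000 named genes that passed the filter, and is a description, since all mice share library preparation and differ in depth and cell content. Tef had a Pearson r of 0.74 with Dbp (Spearman rho 0.688), rank 39 of all genes, and Per3 had 0.713 (rho 0.66), rank 60. Without the 2 mice farthest from the median of Per3, the value of Per3 was 0.608. Without the 2 mice farthest from the median of Dbp, that of Tef was 0.596. Nr1d2 had 0.582 (rho 0.508, and 0.418 without the 2 mice farthest in Dbp) and Nr1d1 0.578 (rho 0.444, and 0.366). For scale, 95% of all genes had an r to Dbp below 0.475. The 5 genes of the output arm thus tracked each other in single mice. The closest pair was Nr1d1 with Nr1d2 at 0.826 (rho 0.792, and 0.764 without the 2 mice farthest in Nr1d1).

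Opposed to Dbp were Nfil3 at -0.612 (rho -0.579, and -0.55 without 2 mice), rank 34 from the bottom, Wee1 at -0.587, a kinase that holds back mitosis, Timeless at -0.533 and Per2 at -0.479. For Nfil3 the opposition was -0.879 within the F1 and -0.503 within the F2 mice. Arntl and Npas2, opposite in phase to Dbp in the textbook loop, were near 0 with Dbp at -0.112 and -0.0425. The Arntl value was 0.574 within F1 and -0.437 within F2 mice, so it had no common sign. The r of Arntl was positive with most genes, with a median of 0.5 and 95% of all genes below 0.743. Beside that, Csnk1d, a kinase of the PER proteins, was at 0.728 (0.249 within F1 and 0.835 within F2 mice), Clock, its partner, at 0.68 (0.631 and 0.698), Cry1 at 0.583 (0.21 and 0.657) and Npas2 at 0.0192. The genes most like Arntl were Slc30a7 (0.866), Adnp (0.865), Gnb2l1 (0.863), Rsl24d1 (0.862) and Dhx15 (0.862), and among the most opposed were Zfp445 (-0.733), Mlph (-0.639), Mir6236 (-0.597) and Usp17la (-0.596).

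The genes most like Dbp were Slc7a15 (0.858), Dchs2 (0.843), Sgsh (0.822), Rilp (0.818), Bcas3 (0.818), Hvcn1 (0.814), Cyp27a1 (0.812) and Vsig10 (0.812), and the most opposed were Pnp2 (-0.792), Gadd45g (-0.773), P4ha3 (-0.77), Kcnh4 (-0.715), Tgm2 (-0.7), Il31ra (-0.695), Lmnb2 (-0.695) and Sned1 (-0.687). None of these genes is among the clock genes listed here. Per1 stood apart from the output arm, with -0.122 to Dbp. Its closest gene of the clock and output lists was the output gene Tsc22d3, at 0.64 and rank 6 of all genes, with 0.915 within F1 but 0.309 within F2 mice. Tsc22d3 is also induced by glucocorticoids. The other lists were not read for likeness. Wee1 followed at 0.531 and Per2 at 0.358.

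**Figure D3:**
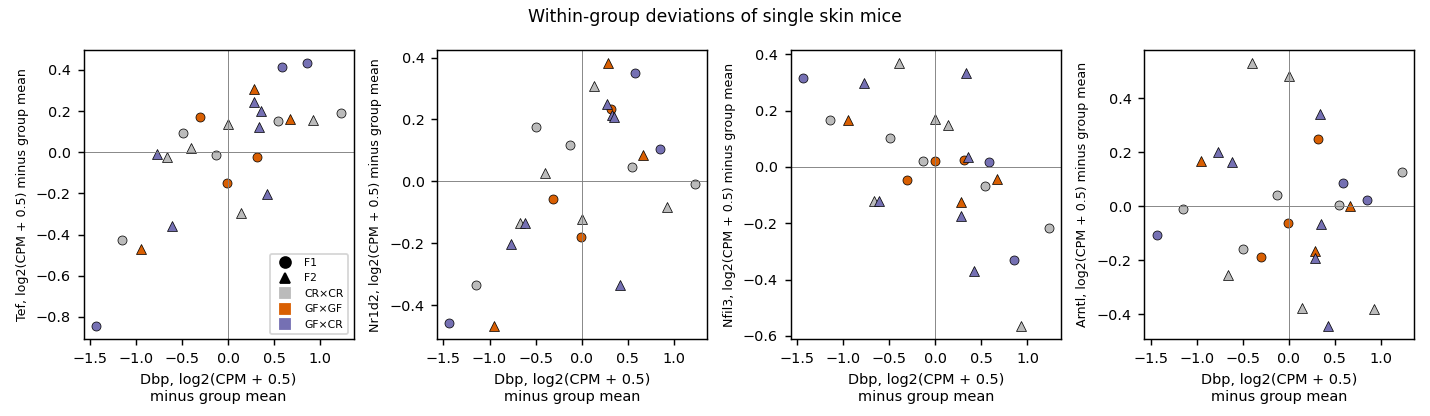
Dbp against Tef, Nr1d2, Nfil3 and Arntl in 25 skin mice, after the group mean was taken from each value. Both axes are differences in log2(CPM + 0.5), circles are F1 and triangles F2 mice, and colours give the cross. The cloud slopes up for Tef (r = 0.74) and Nr1d2 (0.582), down for Nfil3 (-0.612) and forms no line for Arntl (-0.112).

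In the ileum of F1 mice, the means of Nr1d1 and Nr1d2 were higher and that of Per1 lower with a GF father, but every gene overlapped. Per1 was at 16.8, 18.3, 12.5 and 22.96 CPM in CR×CR mice and 5.02, 5.403 and 18.9 CPM in GF×CR mice (-1.05 ± 0.47). GF×CR replicate 3 lay within the controls and the other 2 below all of them. Nr1d1 was at 3.08, 4.33, 3.03 and 1.88 CPM in CR×CR and 3.54, 7.62 and 8.87 CPM in GF×CR mice (0.96 ± 0.45). Nr1d2 was at 5.78, 7.93, 8.07 and 12.6 CPM against 17.1, 10.8 and 17.7 CPM (0.81 ± 0.36). For both, 2 of 3 GF×CR mice lay above all controls. Per2 was at 11.7 to 28.4 CPM against 15.8 to 35.5 CPM (0.45 ± 0.39), and Tef at 6.79 to 21.6 CPM against 15.7 to 21.8 CPM (0.42 ± 0.39).

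Dbp was low in every ileum, at 1.07, 0.555, 2.79 and 3.63 CPM in CR×CR and 1.10, 1.73 and 3.52 CPM in GF×CR mice (0.16 ± 0.59). Its controls covered the range from lowest to highest by themselves. Per3 (0.17 ± 0.46), Cry1 (-0.02 ± 0.27), Arntl (0.09 ± 0.20) and Npas2 (-0.02 ± 0.25) had differences well inside their errors. Arntl was at 38.8 to 49.9 CPM in CR×CR and 42.9 to 52.5 CPM in GF×CR mice. No gene of the 10 was without overlap (0, beside 5.6% of all genes), and 0 passed the call, beside 0% of the 14802 genes tested in limma, of which 666 had an unadjusted p under 0.05. The adipocyte markers summed to 532 to 1252 CPM in CR×CR and 347 to 460.5 CPM in GF×CR ileum, without overlap, and their part was not tested.

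The liver held the largest differences of Per1 and Nr1d1 among these tissues. Per1 was at 44.3, 16.2, 57.9 and 28.2 CPM in CR×CR mice and 0.964, 9.05 and 4.36 CPM in GF×CR mice. Means were 36.6 ± 18.2 and 4.79 ± 4.06 (SD), 7.65-fold lower with a GF father, and the log2 difference was -3.04 ± 0.55. All 3 GF×CR livers lay below all 4 controls. Nr1d1 stood the opposite way at 17.003, 13.3, 15.2 and 3.42 CPM in CR×CR and 69.8, 29.3 and 77.8 CPM in GF×CR livers. Means were 12.2 ± 6.06 and 59.0 ± 26.01, a difference of 2.31 ± 0.47, also without overlap. Nr1d2 was at 5.57, 3.51, 7.85 and 3.85 CPM against 7.71, 11.2 and 16.997 CPM (1.12 ± 0.35), with 1 GF×CR liver below the highest control.

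Per2 was at 3.90 to 8.21 CPM in CR×CR and 1.97 to 5.09 CPM in GF×CR livers (-0.81 ± 0.38), and Tef at 1.28 to 3.58 and 1.09 to 1.51 CPM (-0.74 ± 0.42). Dbp, among the most strongly cycling genes of liver, was close to the limit of detection in both groups, at 0, 0.633, 0.874 and 1.16 CPM in CR×CR and 0.607, 0.362 and 1.45 CPM in GF×CR livers (0.21 ± 0.52). Per3 was as low, at 0.390 to 0.642 CPM and 0.551 to 2.96 CPM (0.73 ± 0.53). These 2 genes did not pass the filter, and their errors come from the 2 groups alone. Arntl (0.01 ± 0.31), Npas2 (-0.23 ± 0.23) and Cry1 (0.08 ± 0.26) differed by about their errors or less. The means of Nr1d1 and Nr1d2 were thus apart in livers in which those of Arntl and Npas2, the genes they repress, were not.

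Of the 8 genes that passed the filter in liver, 2 did not overlap (Nr1d1 higher, Per1 lower), beside 15.8% of all genes, and 0 passed the call, beside 0.0343% of all genes. The hepatocyte markers summed to 76609 to 91286 CPM in CR×CR and 104389 to 121813 CPM in GF×CR livers, without overlap, the smooth muscle markers to 27.6 to 58.9 and 19.8 to 27.4 CPM, also without overlap, and the adipocyte markers to 167 to 1169 and 993 to 1343 CPM. All 10 hepatocyte markers were above 1 CPM in every liver. The part of these differences in cell content in the clock genes was not tested.

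**Figure D4:**
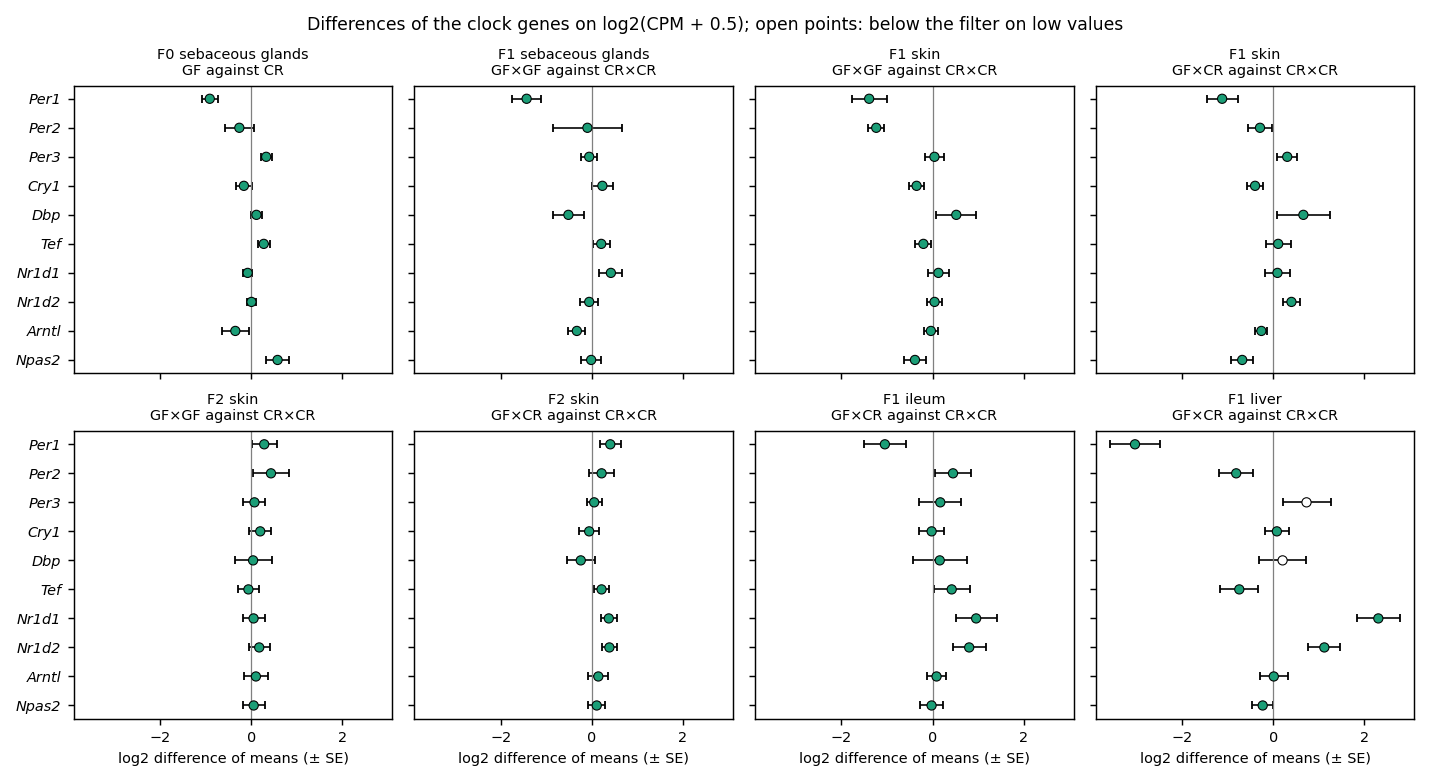
Differences of the 10 genes in 8 comparisons of tissues. The horizontal axis is case minus control in log2(CPM + 0.5), points are the fitted differences and bars their standard errors, and open points are genes below the filter (Per3 and Dbp in liver). Per1 lies below 0 in 6 of 8 comparisons, from -3.04 in liver to 0.40 in F2 GF×CR skin, and Nr1d1 lies between -0.08 and 0.42 apart from ileum (0.96) and liver (2.31).

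Side by side over the 8 comparisons, Per1 had a lower mean with GF parents or GF rearing in 6 and a higher mean in both F2 comparisons. Several comparisons share their CR×CR mice (both F1 skin comparisons, and both F2 skin comparisons), so these are not independent. Per2 was below 0 in 5 of 8 (-1.24 to 0.45), Cry1 in 5 (-0.40 to 0.23), Npas2 in 5 (-0.68 to 0.58) and Arntl in 4 (-0.35 to 0.14). Dbp was below 0 in 2 of 8 (-0.52 to 0.66) and Tef in 3 (-0.74 to 0.42). Per3 (-0.06 to 0.73), Nr1d1 (-0.08 to 2.31) and Nr1d2 (-0.06 to 1.12) were each below 0 in 1 of 8. With median ratio scaling, 7 of these differences changed sign: Dbp and Nr1d2 in F0 SGs, Arntl and Tef in F1 GF×GF skin, and values within 0.1 of 0 for Npas2 in F1 SGs and ileum and Cry1 in ileum. It moved others without a change of sign. In F0 SGs it gave 0.19 for Per3, -0.30 for Cry1 and -0.22 for Nr1d1. In F1 GF×GF skin it gave -1.04 for Per2, -0.13 for Cry1 and 0.27 for Nr1d2. Per1 had the widest range of the 10 and Arntl the narrowest. At an unadjusted p under 0.05, which is given only as a count because the genes were chosen on these contrasts, limma found 2 of 10 genes in F0 SGs (beside 19.8% of all genes), 1 in F1 SGs (12.2%), 2 and 3 in F1 GF×GF and GF×CR skin (8.93% and 7.08%), 0 and 1 in F2 GF×GF and GF×CR skin (1.75% and 2.22%), 2 in ileum (4.5%) and 3 of 8 in liver (15.8%). In glands these counts are near the share of all genes.

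To set the arms of the loop against each other, an index was formed for each mouse as the mean log2 level of Per1, Per2, Per3 and Dbp minus that of Arntl and Npas2. Since the length of each gene is the same for all mice of a table, only differences of the index are read. Its parts did not move as arms over the 25 skin mice. There Per1 and Per2 had an r of -0.122 and -0.479 with Dbp, and Arntl had 0.0192 with Npas2. Genes within a side can thus cancel, and a small index difference does not mean that their levels were equal. The index differed by -0.30 ± 0.21 (SE) in F0 SGs, -0.35 ± 0.23 in F1 SGs, -0.31 ± 0.28 in F1 GF×GF skin and 0.36 ± 0.24 in F1 GF×CR skin. In the F2 it differed by 0.13 ± 0.16 in GF×GF and -0.02 ± 0.23 in GF×CR skin, and in F1 GF×CR mice by -0.10 ± 0.41 in ileum and -0.62 ± 0.33 in liver. The groups overlapped in all 8 comparisons. In liver nearly all of the difference came from the Per and Dbp side (-0.73, against -0.11 for Arntl and Npas2), with Per1 and Per2 below and Per3 and Dbp above the controls, and in F1 GF×CR skin from the Arntl and Npas2 side (-0.47, against -0.11). In F1 SGs (-0.53 and -0.17) and F1 GF×GF skin (-0.52 and -0.21) both sides lay below the controls, so the arms were not opposed. The sides had opposite signs in F0 SGs (-0.18 and 0.11) and ileum (-0.07 and 0.03) alone.

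By single mouse, the index ran from 1.32 to 2.001 in F0 SGs and from -1.35 to -0.55 in F1 SGs, a gap wider than any between crosses. Within F1 CR×CR skin it ran from -1.42 to -0.35 and within F2 CR×CR skin from -0.37 to 0.41, so mice of 1 control group were farther apart than the crosses in skin. CR×CR ilea ran from -3.59 to -2.09 and CR×CR livers from -2.33 to -1.47. In levels, set across tables that were normalised separately and came from different library kits, Dbp was ordered as F0 SGs (54.1 to 63.4 CPM), F1 SGs (6.63 to 14.2), skin (0.849 to 8.03), ileum (0.555 to 3.63) and liver (0 to 1.45). Each neighbour in this order after F0 SGs overlapped with the next. Per1 had its highest levels in F0 CR glands (162 to 188 CPM), while F1 CR×CR glands (97.0 to 114 CPM) overlapped with skin of the same cross (68.0 to 109 CPM), and ileum (12.5 to 22.96 CPM) overlapped with liver (16.2 to 57.9 CPM).

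Other genes of the pathway were read as fixed lists. For 17 further clock genes (partners, kinases, ligases and repressors such as Clock, Cry2, Nfil3, Rora and Csnk1d), the list median in F0 SGs was 0.08, beside an all-gene median of 0.14. Among them 1 passed the call there, higher in GF mice, beside 2.2% of all genes. This was Bhlhe41 (DEC2), a repressor at E-boxes, at 129, 165 and 147 CPM in CR and 287, 281 and 314 CPM in GF glands. It was higher in 3 of 3 GF mice by 1.01 ± 0.12 (adjusted p = 0.00846 in limma), and it was called in all 12 alternatives tried, with adjusted p from 0.00704 to 0.0487. In F1 SGs Bhlhe41 was at 71.5 and 112 CPM in CR×CR and 151, 174 and 195 CPM in GF×GF mice (0.94 ± 0.21, adjusted p = 0.11 in limma). The list held no other call in tissues: 0 of 16 tested in F1 SGs, 0 of 17 in each skin comparison and 0 of 15 in ileum and in liver in limma. At an unadjusted p under 0.05, limma found 5 of 17 in F0 SGs (beside 19.8% of all genes) and 1 in F1 SGs (12.2%). In skin it found 1 and 3 in F1 GF×GF and GF×CR mice (8.93% and 7.08%) and 1 in each F2 comparison (1.75% and 2.22%). It found 0 in ileum (4.5%) and 2 in liver (15.8%).

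Of 10 output genes that are regulated by the clock in liver or skin, 1 of 9 tested passed the call in F0 SGs, beside 2.2% of all genes. In F1 GF×GF skin 1 of 9 passed it, beside 0.09% of all genes, and both were lower. Elovl3, a fatty acid elongase, was at 381, 174 and 293 CPM in CR and 80.1, 83.8 and 112 CPM in GF glands, lower in 3 of 3 mice (-1.56 ± 0.26, adjusted p = 0.0267 in limma). It was called in 7 of 12 alternatives and lost without GF replicate 1 (adjusted p = 0.109), GF replicate 2 (0.0937), CR replicate 1 (0.0915) or CR replicate 3 (0.0888), and with no filter (0.0903). Wee1 was at 21.1, 14.6, 24.9, 21.4 and 18.6 CPM in CR×CR and 6.89, 7.50 and 7.99 CPM in GF×GF skin, lower in 3 of 3 mice (-1.35 ± 0.19, adjusted p = 0.0233). It was called in 4 of 14 alternatives. Among the libraries left out in turn, only CR×CR replicate 2 kept the call (0.0105), and the others gave 0.0621 to 0.169: GF×GF 1 (0.169), 2 (0.0638) and 3 (0.098), CR×CR 1 (0.0636), 3 (0.0787), 4 (0.0621) and 5 (0.0697). In both F1 skin comparisons all 9 output genes tested had differences below 0, with medians of -0.39 (all genes -0.20) and -0.25 (all genes -0.08). Of these, 3 and 4 had an unadjusted p under 0.05 in limma, beside 8.93% and 7.08% of all genes.

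Per1 is also a target of glucocorticoids, so 10 genes known to respond to these hormones were set beside it. Tsc22d3 stands both in this list and in that of the output genes, so the lists are not independent. In F1 skin all 10 had differences below 0 with either cross, with medians of -1.003 in GF×GF and -0.95 in GF×CR mice beside -0.20 and -0.08 over all genes. By limma 0 of the 10 passed the call in either comparison, and 8 and 10 had an unadjusted p under 0.05 (beside 8.93% and 7.08% of all genes), the comparisons sharing their 5 controls. Tsc22d3 was at 149, 138, 209, 177 and 224 CPM in CR×CR skin, at 42.9, 87.5 and 74.3 CPM in GF×GF skin and, in its own table, at 60.9, 89.6 and 117 CPM in GF×CR skin. The median was also below that of all genes in F1 SGs (-0.35 beside -0.03), ileum (-0.49 beside -0.08) and liver (-0.92 beside -0.02), and close to or above it in F0 SGs (0.13 beside 0.14) and in F2 GF×GF (0.12 beside 0.00) and GF×CR skin (0.26 beside 0.02). Mt1, a metallothionein, was the 1 gene of 10 of the list that passed the call in F1 SGs, beside 0.717% of all genes. It went in the other direction, at 7.29 ± 0.791 CPM (SD) in CR×CR and 33.7 ± 10.6 CPM in GF×GF glands, higher in 3 of 3 mice (2.09 ± 0.29, adjusted p = 0.0252 in limma). It lost the call without CR×CR replicate 1 (0.165) or 2 (0.167), fits in which the lone CR×CR mouse is assumed to vary like the GF×GF mice, and without GF×GF replicate 1 (0.0587), 2 (0.0809) or 3 (0.107). The part of these genes' regulators in the Per1 values was not tested.

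Immediate-early genes, which respond within minutes to handling, had 0 calls in limma in tissues, beside 0% to 2.2% of all genes. At an unadjusted p under 0.05, limma found 3 of 9 in F0 SGs (beside 19.8% of all genes) and 2 of 10 in F1 SGs (12.2%). In F1 GF×GF and GF×CR skin it found 3 and 0 of 10 (8.93% and 7.08%). In the F2 it found 0 and 1 of 10 (1.75% and 2.22%), and 0 in ileum and liver (4.5% and 15.8%). Their medians were -0.19 in F0 SGs, -0.03 in F1 SGs, 0.46 and 0.04 in F1 GF×GF and GF×CR skin, 0.16 and 0.29 in the F2, -0.19 in ileum and 0.20 in liver. Heat shock genes had 0 calls too, with medians from -0.47 in ileum to 0.25 in F1 SGs. At an unadjusted p under 0.05, limma found 3 of 8 in F0 and in F1 SGs. It found 1 and 2 of 8 in F1 GF×GF and GF×CR skin and 0 of 8 in both F2 comparisons. In ileum it found 1 of 8 and in liver 0 of 7, beside the shares of all genes given above. Of 5 fasting and feeding genes tested in F0 SGs, 1 was called higher and 1 lower, beside 2.2% of all genes called. Angptl4 was higher (1.59 ± 0.29, adjusted p = 0.0341 in limma) and Pdk4 lower (-0.72 ± 0.13, 0.0342) in 3 of 3 GF glands of the F0. Angptl4 was called in 7 of 12 alternatives and lost without CR replicate 1 (0.134) or 3 (0.107) or GF replicate 1 (0.103) or 2 (0.120). Pdk4 was called in 6 of 12 and lost without CR replicate 1 (0.162), 2 (0.0702) or 3 (0.0616) or GF replicate 1 (0.139) or 2 (0.0990). No gene of these lists was called in F1 skin, F2 skin, ileum or liver.

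Embryos at the 4-cell stage and at the morula stage held transcripts of some clock genes and almost none of others. TPM is scaled by gene length, so levels can be compared between genes here. Over all 70 4-cell embryos the median was 48.3 TPM for Cry1, 14.3 for Nr1d2, 6.47 for Nr1d1, 3.50 for Arntl, 2.17 for Per1, 1.01 for Npas2, 0.97 for Per3 and 0.885 for Tef. Per2 and Dbp had a median of 0, and Dbp was listed at 0 in 49 of 70 embryos. Over all 88 morulae the medians were 28.4 TPM for Cry1, 6.69 for Arntl, 4.71 for Nr1d1, 3.37 for Per1, 1.18 for Nr1d2, 0.485 for Per3, 0.165 for Tef, 0.13 for Npas2 and 0.055 for Per2, and Dbp was again at a median of 0, with 46 of 88 listed at 0. The order thus began with Cry1 at both stages, in 68 of 70 and 87 of 88 embryos at 1 TPM or more. Nr1d2 stood next to Cry1 in 4-cell embryos and after Arntl, Nr1d1 and Per1 in morulae, with quartiles of 8.18 to 21.8 TPM and 0.335 to 3.46 TPM. Below Cry1, all neighbours in either order had quartiles that overlapped, so their order is loose. Dppa3, a transcript of oocytes and early embryos, was at 4876 to 29848 TPM in the 4-cell embryos, and the 2 stages were processed as separate tables.

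The embryos fall into 2 sets by whether Marchf2 or Mtarc2 has the higher level, a split that no source used here explains, and the sets are unevenly spread over the groups. In 4-cell embryos CR×CR held 19 and 6 embryos of the sets, CR×GF 9 and 0, GF×CR 15 and 0 and RAG×WT 0 and 21. In morulae CR×CR held 21 and 22, GF×CR 17 and 0 and RAG×WT 0 and 28. Most differences of the clock genes and the index are therefore given over all embryos and again within the set that holds the cases, with the standard error of the 2 groups. All comparisons of a stage share their CR×CR embryos.

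In 4-cell embryos with GF eggs (CR×GF), Per1 and Nr1d1 had higher means than in CR×CR. Per1 had a median of 4.52 TPM (0 to 14.6) against 1.38 TPM (0 to 7.83), a difference of 1.34 ± 0.66, and 1.31 ± 0.67 within the set. Nr1d1 had a median of 13.96 TPM (2.14 to 38.5) against 5.89 TPM (0 to 35.5), a difference of 1.25 ± 0.58, and 1.34 ± 0.62 within the set. Ranges overlapped for both. Npas2 had a lower mean (-0.90 ± 0.62), with 6 of 9 embryos listed at 0 against 3 of 25. The index was 1.20 ± 0.67 higher, and 1.16 ± 0.69 within the set. In 4-cell embryos the index rests partly on genes near 0, such as Per2 and Dbp, whose differences depend on the pseudocount. The Per2 difference in CR×GF embryos was 0.83, but 1.60 with a pseudocount of 0.1. With GF sperm (GF×CR), the index was 0.76 ± 0.37 higher and 0.72 ± 0.39 within the set, from Npas2 (-0.82 ± 0.45) and Arntl (-0.49 ± 0.53) more than from the Per genes and Dbp (-0.19 to 0.28). Cry1 had medians of 36.5 TPM in CR×GF and 44.8 TPM in GF×CR embryos against 47.8 TPM. Its difference was 0.19 ± 0.40 in CR×GF embryos, and 0.39 ± 0.48 within the set. In GF×CR embryos it was -0.03 ± 0.56, and 0.17 ± 0.62 within the set. Of 8 genes tested, 0 passed the call with either cross in limma (1 in CR×GF and 0 in GF×CR at an unadjusted p under 0.05, beside 11.4% and 5.19% of all genes), beside 0.337% of all genes in CR×GF and 0.0102% in GF×CR embryos.

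In 4-cell embryos of Rag2-/- sperm, Nr1d2 had a median of 21.4 TPM (1.75 to 76.6) against 11.4 TPM (0 to 39.2) in CR×CR, a difference of 0.76 ± 0.40. Within the set the difference was 0.02 ± 0.38. The 6 CR×CR embryos of that set had a mean of 4.18 on the log2 scale, beside 4.1997 in RAG×WT embryos. Per1 was 0.86 ± 0.42 higher and 0.96 ± 0.63 within the set, and Per2 0.76 ± 0.31 and 0.68 ± 0.34. The index did not differ beyond its error (-0.06 ± 0.37, and 0.08 ± 0.50 within the set). Of 7 genes tested, 0 passed the call in limma (1 at an unadjusted p under 0.05, beside 21.8% of all genes), beside 5.53% of all genes. Within the set, 0 of 11350 genes passed it in limma (388 at an unadjusted p under 0.05).

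GF×CR morulae had lower means than CR×CR morulae for many genes, clock genes among them. They also held fewer genes at 1 TPM or more, 7481 to 10359 with a median of 9263, against 8773 to 10845 with a median of 10191 in CR×CR morulae, and the part of this in the differences was not tested. Cry1 had a median of 23.6 TPM (0.80 to 45.3) against 28.6 TPM (7.19 to 59.0), a difference of -0.72 ± 0.36, and -0.55 ± 0.37 within the set. Nr1d2 had a median of 0.44 TPM (0 to 5.24) against 1.21 TPM (0 to 7.58), a difference of -0.85 ± 0.33, and -0.78 ± 0.35 within the set. Both are read beside the median of all genes at -0.32, and 41.5% of all genes had an unadjusted p under 0.05 here. Of 5 genes tested, these 2 passed the call, beside 30.2% of all genes. Neither passed it with median ratio scaling or no filter, and Nr1d2 lost it with a pseudocount of 1. Within the set Cry1 did not pass it, and Nr1d2 was below the filter and not tested. Per2, below the filter, was at 1 TPM or more in 0 of 17 GF×CR and 7 of 43 CR×CR morulae. The index differed by -0.04 ± 0.21, and by 0.19 ± 0.23 within the set. Of 12 further clock genes tested, Cry2 and Nfil3 passed the call, both lower. No further clock gene passed it in limma in the other embryo comparisons. There 2, 0 and 2 of 9 in CR×GF, GF×CR and RAG×WT 4-cell embryos had an unadjusted p under 0.05, beside 11.4%, 5.19% and 21.8% of all genes. In RAG×WT morulae 1 of 11 had, beside 19.3% of all genes. Cry2 had a median of 1.84 TPM against 4.62 TPM (-1.26 ± 0.35, adjusted p = 0.00519 in limma) and was called within the set (-1.10, 0.0285). Nfil3 had a median of 3.43 TPM against 8.63 TPM (-1.08 ± 0.38, 0.0256) and was not called within the set (0.245).

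Of 9 output genes tested in GF×CR morulae, 3 (Nampt, Wee1 and Tsc22d3) passed the call, all lower. That share is near the 27.3% of all genes that were called lower there. Over all embryos they differed by -0.87 ± 0.23, -0.89 ± 0.26 and -1.29 ± 0.45 (adjusted p = 0.00403, 0.00902 and 0.0257 in limma). Within the set they differed by -0.69, -0.54 and -0.60, and none of them passed the call. Of the other lists, 4 of 9 glucocorticoid-responsive genes (Sgk1, Ddit4, Klf9 and Tsc22d3), 2 of 4 fasting and feeding genes (Srebf1 and Acly), 1 of 6 immediate-early genes (Btg2) and 1 of 7 heat shock genes (Hsph1) passed it, all lower, and Sgk1, Srebf1 and Acly passed it within the set too. In RAG×WT morulae Nr1d2 had a median of 2.84 TPM against 1.21 TPM (0.65 ± 0.29, and 0.58 ± 0.38 within the set) and Npas2 of 0.63 TPM against 0 TPM (0.63 ± 0.23, and 0.81 ± 0.21 within the set). These 2 genes stood at the low end of TPM, where 2 of 28 and 8 of 28 RAG×WT morulae were listed at 0. The index differed by -0.24 ± 0.18, and by -0.45 ± 0.22 within the set. Of 5 genes tested, 0 passed the call in limma (1 at an unadjusted p under 0.05, beside 19.3% of all genes), beside 2.68% of all genes. In RAG×WT 4-cell embryos 1 of 8 glucocorticoid-responsive genes (Klf9), 1 of 5 fasting and feeding genes (Fasn) and 3 of 7 heat shock genes (Dnajb1, Hsp90aa1 and Hspe1) passed the call over all embryos, beside 5.53% of all genes, and not within the set, where their differences were smaller. In RAG×WT morulae 1 of 9 glucocorticoid-responsive genes (Mt2) and 1 of 7 heat shock genes (Hsp90aa1) passed it over all embryos and not within the set. The difference of Mt2 was 0.47 over all embryos and 0.64 within the set, and that of Hsp90aa1 -0.31 and -0.08.

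**Figure D5:**
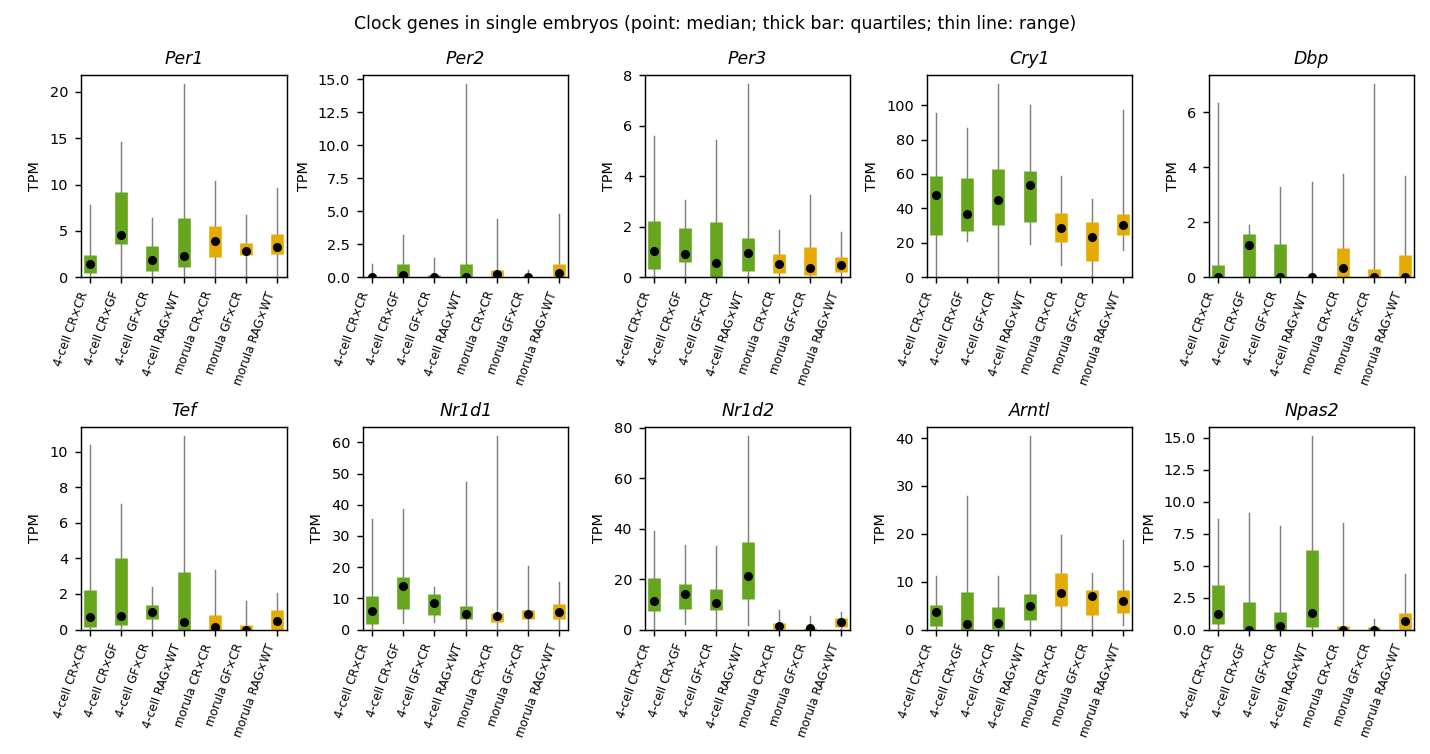
Clock gene levels in 4-cell embryos and morulae, one panel for each of the 10 genes. The vertical axis is TPM, points are group medians, thick bars quartiles and thin lines the full range, for 4 groups of 4-cell embryos and 3 of morulae. Cry1 is the highest gene in every group, with medians from 23.6 to 53.6 TPM, Nr1d2 is at medians of 10.7 to 21.4 TPM in 4-cell embryos and 0.44 to 2.84 TPM in morulae, and Dbp is at a median of 0 except in CR×GF 4-cell embryos (1.18) and CR×CR morulae (0.32).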

How the data were processed

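The deposited tissue tables hold CPM values per gene and sample, and the deposited embryo tables hold TPM values. Per the study's methods, the authors made SG, skin and ileum CPM with Kallisto and Ensembl annotation in R 4.2. For liver the methods name this Kallisto pipeline in 1 place and RSEM in another, and which made these values is not known. Per the submitters' processing notes, embryo values were made with RSEM on mm10. The authors' later TMM scaling and 1 CPM filter are not seen in the CPM values, which list genes at 0. The methods name TPM for liver, but its low values were whole multiples of 1 step in each sample (95.0 to 96.6% within 0.1 step), so liver was taken as CPM. Reads per library were estimated from such steps, and are rough where Kallisto split reads. TPM keeps no depth, so the depth of single embryos is unknown. In SG and skin tables, 27 rows each with gene names turned into dates were left out, and 0 per-sample columns were unused. No 2 columns were identical.

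Each comparison was fitted in its own table with limma 3.58.1 (R 4.3.3, trend of variance on mean) on log2(value + 0.5), for genes that reached 1 in a number of samples equal to the size of the smaller group, with Benjamini-Hochberg adjustment over all genes tested and a threshold of 0.05. Scripts were tested on simulated data. CR×CR skin mice stand in 2 tables whose values differ by a factor for each gene, so they were compared only within a table. Plots and summaries used Python 3.11.15, numpy 2.4.6, pandas 2.3.3 and matplotlib 3.10.9. Replicate numbers were checked for pairing by the correlation of deviations of same-numbered samples. Every pair was over 0.1 only in ileum (3 pairs, 0.212 to 0.273), a pairing that rests on values since the labels state none.

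The 10 genes and all lists were chosen with earlier results of these data known. Named genes were the 10, genes of the clock, output, glucocorticoid, immediate-early, heat shock and fasting lists with an adjusted p under 0.05 (up to 4 a list and comparison outside the clock lists), and the genes most and least like Dbp (8 each) and Arntl (5 each) in skin. One gene that this rule names is not reported here. Alternatives were pseudocounts of 0.1 and 1, no filter, a filter at 5, median ratio scaling, each sample left out in groups of up to 5, a replicate block and, in embryos, fits within a set.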

Additional observations from a re-analysis of the deposited data

Results flagged for a closer look

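In F2 CR×CR skin, Per2 was at 22.4 CPM in replicate 5 and at 7.36 to 9.29 CPM in the other 4 mice, a mouse far from the rest of its group. In 4-cell CR×GF embryos, Npas2 was at 9.11 TPM in replicate 5 and at 0 to 3.57 TPM in the other 8. These were 2 of 60 gene and group pairs examined in groups of 4 to 10 samples, and chance alone picks out about 1 in 20. Cry1 had opposite signs in 2 tissues of the F1 GF×GF cross, 0.23 in SGs and -0.35 in skin (log2 difference from CR×CR), with every GF×GF gland above and every GF×GF skin sample below its controls. The groups nearly touched in both tissues, and the gland difference was smaller than its standard error. The skin difference was -0.13 with median ratio scaling. Groups without overlap were found for 30.2% of all genes in F1 SGs and 6.5% in F1 GF×GF skin. The difference between the tissues was not tested.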

How the results depend on the processing

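In tissues, the index kept its value within the replicate spread under all 86 alternatives. The index of embryos was not part of this check. The differences of the 10 genes, in tissues and embryos, stayed within the spread in 1092 cases and moved beyond it in 18. In 4-cell CR×GF embryos, Per2 was among these, at 1.60 with a pseudocount of 0.1. Between 0 and 1 of the 10 genes passed the call over the alternatives in F0 and F1 SGs and both F1 skin comparisons, 0 to 2 in liver (Per1 without GF×CR 2, Per1 and Nr1d1 with the block) and GF×CR morulae, and 0 in the others. With no filter, all genes called were 60 in F0 SGs, 5 in F1 SGs, 7 in F1 GF×GF skin, 5 in F1 GF×CR skin, 9 in 4-cell CR×GF, 309 in 4-cell RAG×WT and 162 in RAG×WT morulae. With a pseudocount of 0.1 they were 21 in 4-cell CR×GF. Within embryo sets they were 13 in 4-cell CR×GF, 0 in 4-cell RAG×WT, 1271 in GF×CR morulae and 3 in RAG×WT morulae. With a replicate block, the pairing being borne out only in ileum, they were 505 in F0 SGs, 129 in F1 GF×CR skin, 1 in ileum, 224 in liver, 3 in 4-cell CR×GF, 133 in GF×CR morulae and 1474 in RAG×WT morulae. In ileum 0 of the 10 genes were called with or without the block. Other clock genes called in F0 SGs were 2 (Bhlhe41 and Csnk1e) with a pseudocount of 1, a filter at 5, median ratio scaling or the block. In GF×CR morulae they were 0 with the block and 1 within the set, and in RAG×WT morulae 1 with a filter at 5 and 2 with the block. The causes were not tested.

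Leaving out 1 sample at a time gave 49 to 684 genes called in F0 SGs (49 without CR 1, 132 without CR 3, 50 without GF 1, 63 without GF 2, 684 without GF 3), 2 to 53 in F1 SGs (53, 13 and 7 without GF×GF 1, 2 and 3, 2 and 27 without CR×CR 1 and 2), 8 to 16 in F1 GF×GF skin (8 without GF×GF 1 or 3 or CR×CR 5, 9 without CR×CR 4), 2 to 10 in F1 GF×CR skin (3, 2 and 2 without GF×CR 1, 2 and 3), 4 to 9 and 0 in the F2 (4 in GF×GF without CR×CR 3 or 4), 0 in ileum and 4 to 11 in liver (11 without CR×CR 1, 7 without CR×CR 4). Other clock genes called were 1 to 2 in F0 SGs (2 without CR 3 or GF 3) and 0 elsewhere. The index ran from -0.49 to -0.19 in F0 SGs, -0.56 to -0.16 in F1 SGs, -0.49 to -0.11 and 0.18 to 0.51 in F1 GF×GF and GF×CR skin, 0.03 to 0.22 and -0.12 to 0.07 in the F2, -0.36 to 0.14 in ileum and -0.81 to -0.35 in liver. The planned fit without embryos of few genes gave no value, since no embryo had under 50% of the median gene number.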
